A study of Mus musculus with 12 samples.

Results

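Cells that had received a scramble siRNA, a short double-stranded RNA meant to match no transcript, were set against control cells of the same line, to ask what the transfection control of this study does on its own. The line is PYMT-R221A, a mouse mammary tumour line driven by the polyoma virus middle T antigen. The comparison takes 3 scramble libraries and 3 control libraries, 6 of the 12 in the series. The other 6 are 3 libraries with siRNA against Mbd2 (siMBD2) and 3 with the small molecule KCC-07 at 40 µM. Members were chosen by the treatment label alone, and all 14935 genes that passed the filter on low counts, of 55335 in the table, were tested. The control libraries are labelled as control, and the design text calls those cells wild type. No vehicle, reagent, dose or duration of transfection is named. The scramble group therefore differs from control in the siRNA, in whatever carried it in, and in any handling that went with that arm, and these cannot be told apart.

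Double-stranded RNA in the cytoplasm or in endosomes is read by sensors such as RIG-I, MDA5, PKR and the Toll-like receptors. Several of them, though not PKR, signal through TBK1 to interferon regulatory factors. Secreted interferon then acts through its receptor and a complex that includes IRF9. That complex binds an interferon-stimulated response element in the promoters of antiviral genes. Sterol and fatty acid synthesis genes are controlled by the SREBP factors, which are released from the endoplasmic reticulum when its membranes are low in sterol, and NRF2 drives redox genes when its inhibitor KEAP1 is modified.

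The deposited counts summed to 26.1 to 32.9 M in the scramble libraries, against 29.8 to 34.0 M in the control libraries. The labels name the replicates as biological and tag each library with a batch numbered as its replicate. Replicate 3 stood apart in every group. Between control replicate 3 and the other control libraries the chi-square per degree of freedom was 124 and 82.9, against 27.4 between control replicates 1 and 2. In the scramble group it was 22.3 and 21.1, against 3.45. Luminal epithelial markers summed to 1779 to 1933 CPM (counts per 1000000 counts, with library sizes scaled by TMM) in scramble libraries, against 1381 to 1580 CPM in control libraries, with 3 of 10 markers higher and 1 lower by the test. Basal markers summed to 549.9 to 619 CPM, against 552 to 662 CPM, with 1 of 6 tested lower. That marker was Trp63, with 28.2, 31.6 and 25.8 CPM, against 56.6, 55.4 and 55.6 CPM (log2 fold change -0.97, edgeR adjusted p = 0.0285). Fibroblast markers summed to 143 to 148 CPM, against 186 to 218 CPM, with 1 of 5 tested lower and Thy1 at 0 in all 6 libraries. Pdgfra made up most of that sum, at 111, 112 and 108 CPM, against 144, 160 and 150 CPM. It did not pass the test (edgeR adjusted p = 0.140). Macrophage and leukocyte markers summed to 73.8 to 96.8 CPM, against 115 to 173 CPM, with 1 of 3 tested lower and Ptprc, Adgre1, Itgam and Cd3e at 0. Cd14, a co-receptor for bacterial lipopolysaccharide, made up most of that sum, at 90.4, 93.1 and 71.2 CPM, against 128, 167 and 112 CPM. Endothelial markers stayed at or under 1.98 CPM, against 4.36 CPM, and the adipocyte markers Adipoq, Plin1 and Cidec were at 0. By the same test, 4.71% of all 14935 genes were higher and 4.08% lower. What part these markers play in the results was not tested. Mbd2, the target of the other siRNA, stood at 75.8, 83.2 and 72.5 CPM in scramble libraries and 35.7, 34.7 and 30.6 CPM in siMBD2 libraries, against 72.9, 75.9 and 76.5 CPM in control libraries.

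Against control, the scramble libraries showed 704 genes higher and 609 lower, which is 4.71% and 4.08% of the 14935 tested (edgeR quasi-likelihood test over all 12 libraries, Benjamini-Hochberg adjusted p under 0.05). Changes were ranked among called, non-overlapping genes with a mean of at least 2 CPM, leaving out predicted gene models (the naming rule). By that rule the largest increases included antiviral genes (Rsad2, Ifit1, Oasl1, Oas1a, Apol9b) and Grhl3, Tmprss2, Zfp750 and Marveld2, which are known from epithelia. Genes of fatty acid and cholesterol synthesis, glutathione and redox genes and ribosome biogenesis genes were also among those that rose. By the same rule the genes that fell most included the receptor Pdgfrb, the myosin Myh8 and the protease Tmprss4. Several mitotic, histone and hypoxia-linked genes fell by smaller amounts. A change of at least 2-fold was reached by 93 of the higher genes and 191 of the lower ones. An unadjusted p under 0.05 in the same test was reached by 4062 of the 14935 genes. That share is the background for such counts of scramble over control below. The median log2 fold change over all genes tested was -0.03. In 1312 of the 1313 called genes the scramble and control libraries did not overlap. The test favours genes whose groups lie apart, so that count is largely built in and adds no separate support to the calls. The share without overlap among all genes tested is not given here.

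**Figure D1:**
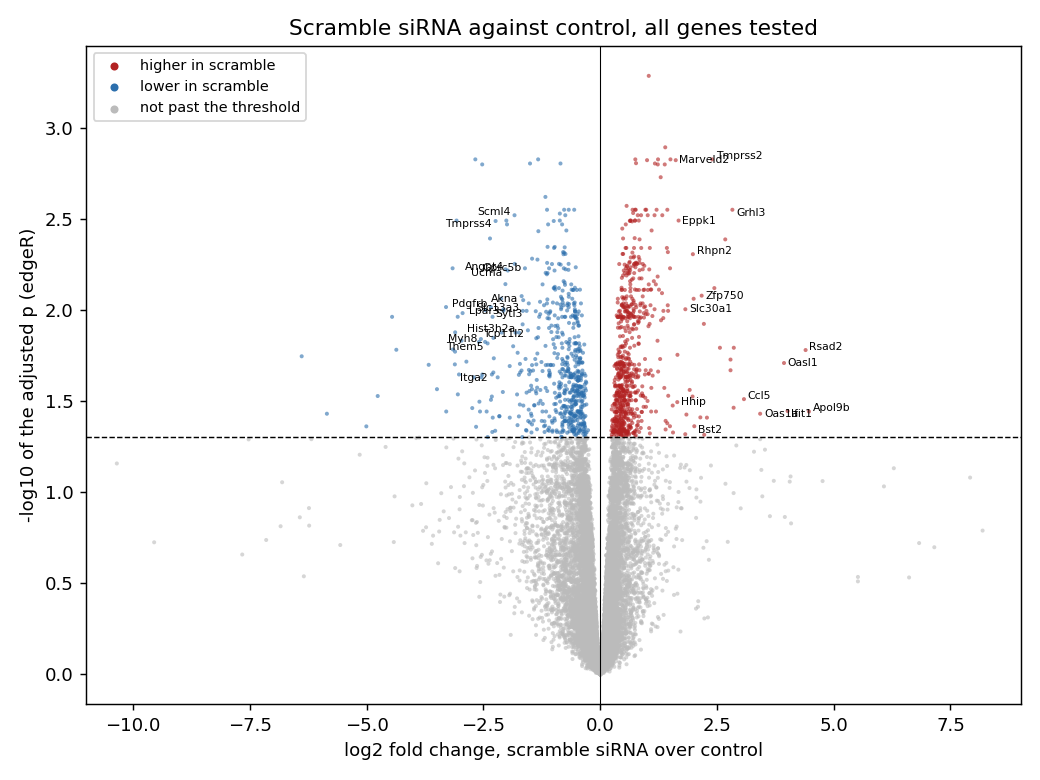
Each point is 1 of the 14935 genes tested, by log2 fold change of scramble over control (x axis) and -log10 of the edgeR adjusted p (y axis). Points above the dashed line, at an adjusted p of 0.05, are the 704 higher and 609 lower genes, and the names mark the 15 largest changes in each direction by the naming rule.

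How many genes were called depended on single libraries. Leaving out control replicate 3 gave 1664 genes higher in scramble than control and 1446 genes lower in scramble than control, and leaving out control replicate 1 or 2 gave 319 and 302 higher and 298 and 258 lower. Without scramble replicate 1, 2 or 3 there were 187, 208 and 327 higher and 106, 140 and 234 lower. Of the 1313 genes, 260 were called in all 6 of these fits (170 higher, 90 lower), and genes with that property are said below to hold in every leave-one-out fit. With the replicate number as a block, 1103 genes (7.39%) were higher and 959 (6.42%) lower, and 1306 of the 1313 were among them. Without the 4 libraries of replicate 3 the counts were 3231 (21.6%) and 2933 (19.6%) of 14980, with 1303 of the 1313 among them. With upper quartile scaling in place of TMM the split was 488 higher and 921 lower, and the median of all genes was -0.10. The Wald test of DESeq2 called 1232 (8.26%) and 1067 (7.15%) of 14923, with 1311 of the 1313 among them. For list counts in any of these fits, the background is the total of that same fit and not the share of the main fit. The number of genes tested in each leave-one-out fit is not given here, so those totals stand without a share.

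**Figure D2:**
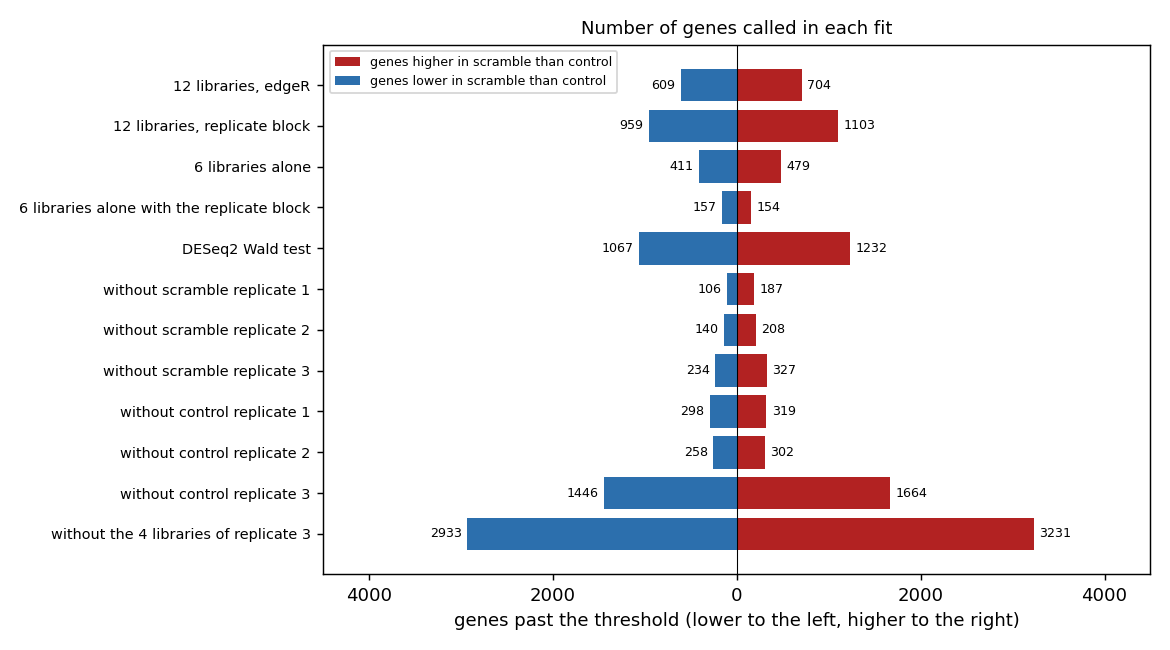
Number of genes called higher (bars to the right) and lower (bars to the left) in scramble than in control, for each fit. The fewest higher genes (154) came with the 6 libraries alone and the replicate block, the fewest lower genes (106) without scramble replicate 1, and the most of both (3231 and 2933) without the libraries of replicate 3.

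Antiviral genes gave the largest increases among the genes that the naming rule gives. Of 38 measured genes of the type I interferon response, 5 rose (Rsad2, Oasl1, Ifit1, Oas1a and Bst2) and none fell. The 5 are 13.2%, against 4.71% of all genes. An unadjusted p under 0.05 was reached by 24 of the 38, against 4062 of all 14935 genes. The list's median log2 fold change was 1.60, against -0.03 over all genes, and 36 of the 38 lay above 0. That median was 0.50 without scramble replicate 3 and 1.53 to 1.94 without any 1 of the other libraries, and 0.51 without the libraries of replicate 3. The count of higher members was 0 without control replicate 1 or 2 or scramble replicate 3, and 2 without scramble replicate 1 or 2 or control replicate 3, the last with 1 lower. With the replicate block 14 were higher and none lower, and without the libraries of replicate 3 it was 18 higher and 2 lower. Scramble replicate 3 was the highest of the 3 scramble libraries for all 38 members, as it was for 6005 of the 14935 genes tested. The summed level of the list was 683, 670 and 1644 CPM in scramble replicates 1, 2 and 3, and 1372, 1182 and 4347 CPM in siMBD2 replicates 1, 2 and 3, against 585, 615 and 527 CPM in control.

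Rsad2 (chromosome 12, 26442746 to 26456452) encodes viperin, an enzyme that makes a chain-terminating ribonucleotide and blocks the replication of several viruses. It stood at 12.6, 11.1 and 64.3 CPM in scramble libraries, against 1.82, 1.599 and 0.754 CPM in control libraries, a log2 fold change of 4.40 (with SE 0.93, edgeR adjusted p = 0.0166). Every scramble library was above every control library, with replicate 3 several times above the other two. Oasl1 (chromosome 5, 114923240 to 114937915), a regulator of the interferon response related to the oligoadenylate synthetases, had 6.57, 5.23 and 27.4 CPM with scramble, against 0.849, 1.13 and 0.5798 CPM in control (log2 fold change 3.94 with SE 0.86, edgeR adjusted p = 0.0196). Both lost the call without control replicate 1, control replicate 2 or scramble replicate 3, where the edgeR adjusted p reached 0.0601 for Rsad2 and 0.0725 for Oasl1. Oasl1 also overlaps a gene on the opposite strand, and the strand setting of the counting is not given, so its level is uncertain.

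Ifit1 (chromosome 19, 34640871 to 34650009) encodes a protein that binds foreign RNA by its 5' end. It had 9.49, 9.94 and 67.03 CPM in scramble libraries, against 1.52, 2.73 and 1.13 CPM in control libraries (log2 fold change 4.01 with SE 1.04, edgeR adjusted p = 0.0359). Bst2 (chromosome 8, 71534255 to 71537456), or tetherin, holds budding virus at the cell surface. It had 26.8, 24.4 and 73.2 CPM with scramble, against 9.19, 13.8 and 7.83 CPM in control (log2 fold change 2.02, edgeR adjusted p = 0.0435). Oas1a (chromosome 5, 120896256 to 120907521) makes the second messenger that switches on RNase L, and its level is uncertain because Oas1g is a near-identical copy. It had 2.98, 2.54 and 15.96 CPM, against 0.615, 0.799 and 0.5798 CPM (log2 fold change 3.43, edgeR adjusted p = 0.0371). The groups did not overlap for any of these genes, which the naming rule requires. Each lost the call in all 6 leave-one-out fits, with edgeR adjusted p up to 0.131, 0.156 and 0.143 for Ifit1, Bst2 and Oas1a.

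A pair of interferon-linked genes outside the list were among the largest increases. Apol9b (chromosome 15, 77729039 to 77736382), an apolipoprotein L gene, had 1.48, 1.82 and 18.1 CPM in scramble libraries, against 0.322, 0.533 and 0.116 CPM in control (log2 fold change 4.47 with SE 1.16, edgeR adjusted p = 0.0361). Its copy Apol9a is near-identical, so reads may be shared between them, and the call held only without scramble replicate 1 or 2 (highest edgeR adjusted p 0.15). Ccl5, a chemokine that draws in T cells, had 9.33, 8.99 and 36.98 CPM, against 2.43, 3.63 and 0.522 CPM (log2 fold change 3.08, edgeR adjusted p = 0.0309). Its call held only without control replicate 3 (edgeR adjusted p up to 0.109 in the other leave-one-out fits).

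Members that did not pass also had their highest value in scramble replicate 3. Irf7, the factor that amplifies interferon production, overlaps Phrf1 on the opposite strand and had 4.21, 3.49 and 33.4 CPM in scramble libraries, against 1.38, 2.098 and 2.899 CPM in control (edgeR adjusted p = 0.0900). Isg15, a ubiquitin-like modifier, had 17.1, 17.3 and 74.1 CPM, against 9.87, 13.96 and 8.55 CPM (edgeR adjusted p = 0.123). Scramble replicates 1 and 2 were above every control library for both genes, and replicate 3 was several times higher again. Isg15 and Irf7 were picked after their values were seen. Replicates 1 and 2 together lay above every control library for 22 of the 38 members, against 3231 of the 14935 genes tested. Replicate 3 did so for 36 of the 38, against 4023 of the 14935.

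**Figure D3:**
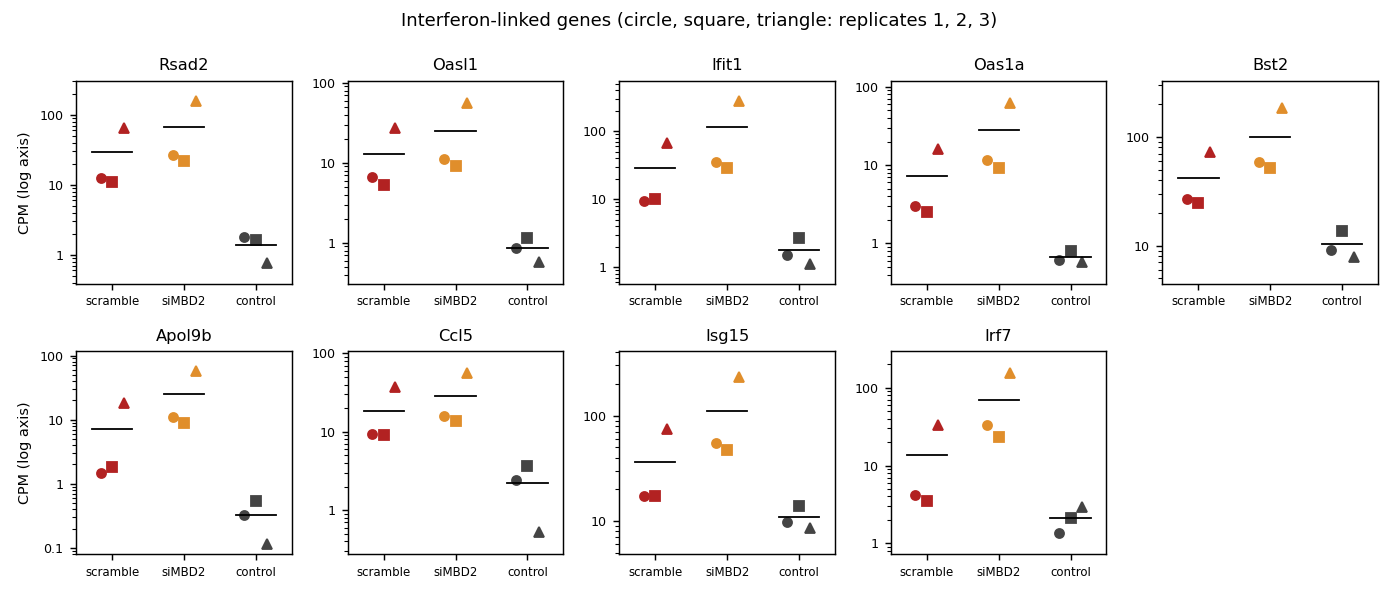
Level in CPM (log axis) of 9 interferon-linked genes in each scramble, siMBD2 and control library, with circles, squares and triangles for replicates 1, 2 and 3 and a line at the group mean. Triangles stand above the other libraries of the scramble and siMBD2 groups (Rsad2 64.3 CPM in scramble replicate 3 and 155 CPM in siMBD2 replicate 3), while control replicate 3 is the lowest control library for Rsad2 (0.754 CPM).

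Promoter stretches of Apol9b, Rsad2, Ifit1, Oas1a and Bst2 are shown, picked because each holds a match to the element through which interferon signalling acts. RefSeq windows of 250 bases before to 50 after the start (build GRCm38.p6) were searched on both strands for GAAANNGAAA, a core of the interferon-stimulated response element, and overlapping matches were kept. Capitals mark the matches, which read as the reverse complement where they lie on the opposite strand, and the letters run 5' to 3' on the strand of the gene.
Apol9b, chr15:77729015-77729070, plus strand: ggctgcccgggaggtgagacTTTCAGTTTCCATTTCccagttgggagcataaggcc
Rsad2, chr12:26456543-26456592, minus strand: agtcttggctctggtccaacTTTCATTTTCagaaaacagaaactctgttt
Ifit1, chr19:34640765-34640833, plus strand: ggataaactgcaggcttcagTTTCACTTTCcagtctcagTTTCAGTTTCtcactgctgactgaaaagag
Oas1a, chr5:120907510-120907565, minus strand: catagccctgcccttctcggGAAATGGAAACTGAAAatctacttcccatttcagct
Bst2, chr8:71537567-71537622, minus strand: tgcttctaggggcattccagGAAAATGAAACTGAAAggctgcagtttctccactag
A match was found in 14 of the 27 interferon list members with a window (51.9%), against 1079 of all 27025 genes with a window (3.99%). Of the 5 members that rose, Ifit1, Rsad2, Oas1a and Bst2 held one and Oasl1 did not. The sterol response letters TCACNCCAC were in 1 of 17 cholesterol gene promoters (5.88%), against 388 of the 27025 genes, the E-box CACGTG in 6 of 24 ribosome biogenesis promoters (25%), against 8.09%, and the GRHL letters AACCGGTT in 0 of 17 epithelial promoters, against 0.174%. A match is a description of the letters in the window and no proof of binding.

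In each of the lists of RNA sensors, MHC class I presentation and RNA interference, 2 genes rose and none fell. Among 21 RNA sensors and adaptors this is 9.52%, against 4.71% of all genes higher, with a median of 0.32 and 5 higher with the replicate block. Cgas, the cytosolic DNA sensor, had 27.1, 28.6 and 24.5 CPM in scramble libraries, against 17.4, 16.7 and 16.7 CPM in control (log2 fold change 0.66, edgeR adjusted p = 0.00842). Tbk1, the kinase on which several of these sensors converge, had 54.5, 54.2 and 58.8 CPM, against 38.6, 39.4 and 42.99 CPM (log2 fold change 0.47, edgeR adjusted p = 0.00933). Both held in every leave-one-out fit, and neither showed the high replicate 3 of the interferon genes, though Cgas overlaps a gene on the opposite strand and is uncertain. Adar, the RNA-editing enzyme, which overlaps Chrnb2 on the opposite strand, had 71.03, 69.9 and 100.2 CPM, against 43.5, 46.4 and 51.7 CPM, and missed the threshold (edgeR adjusted p = 0.0648, or 0.0175 in the block fit).

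Of 15 genes of MHC class I presentation, the 2 that rose are 13.3%, against 4.71% of all genes. Erap1, the peptide trimming enzyme of the endoplasmic reticulum, had 122, 120.3 and 143 CPM, against 84.8, 76.3 and 88.3 CPM (log2 fold change 0.63, edgeR adjusted p = 0.00626), and is uncertain for its overlap with Cast on the other strand. H2-K1, a class I heavy chain, rose by a log2 fold change of 0.46 (edgeR adjusted p = 0.0475) and held only without control replicate 2 (up to 0.125 otherwise). The list's median was 0.26, 0.09 without scramble replicate 3, 0.12 without control replicate 3, and -0.03 without the libraries of replicate 3. Of 17 genes of the RNA interference machinery the 2 that rose (11.8%) were Xpo5, which exports microRNA precursors from the nucleus, by a log2 fold change of 0.40 (edgeR adjusted p = 0.0202) and Tnrc6a, the silencing partner of Argonaute, by 0.44 (edgeR adjusted p = 0.0452). Without 1 library that count was 0 to 7, with 0 without control replicate 1 or 2 or scramble replicate 1 or 2, and 7 without control replicate 3.

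Inflammatory genes moved unevenly and depended on control replicate 3. Of 31 NF-kB feedback and cytokine genes, 2 rose (Ccl5, above, and Lif) and none fell, against 4.71% higher and 4.08% lower over all genes. The list's median log2 fold change was -0.90. Lif, a cytokine of the interleukin-6 family, had 332, 402 and 409 CPM in scramble libraries, against 199.8, 266 and 315 CPM in control (log2 fold change 0.55, edgeR adjusted p = 0.0474), and held only without control replicate 3 (up to 0.156 otherwise). The list summed to 4795, 5187 and 3189 CPM with scramble, against 7690, 8056 and 2423 CPM in control replicates 1, 2 and 3. Set pair by pair, the median log2 difference was -0.90, -1.01 and 0.66 for replicates 1, 2 and 3. Without control replicate 3 there were 2 higher and 6 lower members, with the block 3 and 6, and without the libraries of replicate 3 it was 4 and 22. Csf2, the granulocyte and macrophage colony-stimulating factor, is an example, at a low level and with a predicted gene on its opposite strand. It had 0.157, 0.396 and 0.182 CPM in scramble libraries, against 3.43, 4.23 and 0.0870 CPM in control (edgeR adjusted p = 0.101, or 0.0174 in the block fit).

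The 15 largest increases also held genes known from epithelia, of which Marveld2 alone belongs to the list of epithelial junctions and keratins. Not all such genes rose: the basal marker Trp63, given above, fell, and Tmprss4, given below, is among the 15 largest decreases. Grhl3 (chromosome 4, 135541888 to 135573630), a grainyhead-like factor that drives epidermal barrier genes, had 13.6, 12.4 and 7.87 CPM in scramble libraries, against 2.14, 0.999 and 1.59 CPM in control (log2 fold change 2.83 with SE 0.36, edgeR adjusted p = 0.00282). Tmprss2 (chromosome 16, 97564682 to 97611195), a membrane serine protease, had 5.66, 5.19 and 5.1 CPM, against 0.937, 1.03 and 1.04 CPM (log2 fold change 2.40 with SE 0.24, edgeR adjusted p = 0.00149). Zfp750 (chromosome 11, 121510978 to 121519333), a zinc finger factor of terminal epidermal differentiation, had 26.1, 25.2 and 29.2 CPM, against 5.83, 2.16 and 9.77 CPM (log2 fold change 2.17 with SE 0.38, edgeR adjusted p = 0.00835). Marveld2 (chromosome 13, 100595957 to 100616971), tricellulin, seals the points where 3 cells meet. Its values were 46.3, 41.6 and 39.3 CPM with scramble, against 14.7, 13.3 and 13.4 CPM in control (log2 fold change 1.62 with SE 0.18, edgeR adjusted p = 0.00151). None of these groups overlapped, which the naming rule requires, and Grhl3, Tmprss2, Zfp750 and Marveld2 held in every leave-one-out fit.

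Other genes among the 15 largest increases were Eppk1, the keratin linker epiplakin, with a log2 fold change of 1.68 (edgeR adjusted p = 0.00323), and Rhpn2, a scaffold protein, with 1.99 (edgeR adjusted p = 0.00494). Both held in every leave-one-out fit, and both are uncertain, since Faap24 overlaps Rhpn2 on the opposite strand and another gene overlaps Eppk1 on its own strand. Of the 28 measured genes of epithelial junctions and keratins, 6 rose and 1 fell, against 4.71% higher and 4.08% lower over all genes, with a median of 0.29 and 24 above 0. Ocln, occludin of the tight junction, had 12.3, 9.39 and 7.43 CPM, against 3.37, 3.697 and 3.28 CPM, and Cdh1, E-cadherin, had 384, 383 and 413 CPM, against 251, 262 and 304 CPM (edgeR adjusted p = 0.00591 and 0.0102). Krt7, a keratin of simple epithelia, rose by a log2 fold change of 0.91 (edgeR adjusted p = 0.00598) but overlaps Gm671 on the other strand, and Pkp2, a desmosomal plakophilin, by 0.81 (edgeR adjusted p = 0.00302). Krt19, another keratin, fell at a low level, with 0.566, 0.555 and 0.474 CPM, against 1.29, 1.37 and 1.48 CPM (edgeR adjusted p = 0.0143), and lost the call without any 1 scramble library (up to 0.0594). The number of higher members was 5 without any 1 of 5 libraries and 11 without control replicate 3, and 10 with the block. In bulk libraries a change in the number of cells of one kind and a change in RNA per cell cannot be told apart.

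Genes of lipid synthesis were among those that rose. Of 24 measured genes of cholesterol synthesis 11 rose and none fell, which is 45.8%, against 4.71% of all genes, with a median log2 fold change of 0.48, and of 29 fatty acid and triglyceride genes 7 rose and 1 fell, with a median of 0.15 and 9 estimates below 0. Scd1 (chromosome 19, 44394455 to 44407879), the desaturase that makes oleate, had 3379.6, 3551 and 3863 CPM in scramble libraries, against 1387, 1558 and 1162 CPM in control (log2 fold change 1.39 with SE 0.13, edgeR adjusted p = 0.00128). Fasn, fatty acid synthase, had 1922, 1896 and 1892 CPM, against 649, 760.04 and 1295 CPM (log2 fold change 1.08 with SE 0.20, edgeR adjusted p = 0.00942). The control libraries spread more widely than the scramble libraries for Fasn, with replicate 3 the highest control, and still did not overlap them. Acly, which makes cytosolic acetyl-CoA from citrate, had 399, 392 and 411 CPM, against 206, 226 and 276 CPM (log2 fold change 0.76, edgeR adjusted p = 0.00282). Fads2, the delta-6 desaturase, rose by a log2 fold change of 0.75 (edgeR adjusted p = 0.00323), and Acaca, acetyl-CoA carboxylase, by 0.88 (edgeR adjusted p = 0.00457). Acaca has a near-identical copy with which reads may be shared, so its level is uncertain.

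In cholesterol synthesis, Sqle, squalene epoxidase, had 273, 267 and 297 CPM in scramble libraries, against 187, 172 and 165 CPM in control (log2 fold change 0.68, edgeR adjusted p = 0.00682). Srebf2, the sterol-sensing transcription factor itself, had 318, 305 and 294 CPM, against 193, 225 and 209 CPM (log2 fold change 0.55, edgeR adjusted p = 0.00339). Scd1, Fasn, Acly, Fads2, Acaca, Sqle and Srebf2 held in every leave-one-out fit. The number of higher cholesterol genes was 5 without scramble replicate 1 or 2, 6 without scramble replicate 3 or control replicate 2, and 9 without control replicate 1 or 3. In the fatty acid list Cpt2, of mitochondrial fatty acid oxidation, was the 1 gene that fell (13.7, 14.5 and 14.8 CPM, against 19.997, 22.3 and 18.1 CPM, edgeR adjusted p = 0.0183), and it lost the call without control replicate 2 or scramble replicate 1 or 2 (up to 0.0903).

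**Figure D4:**
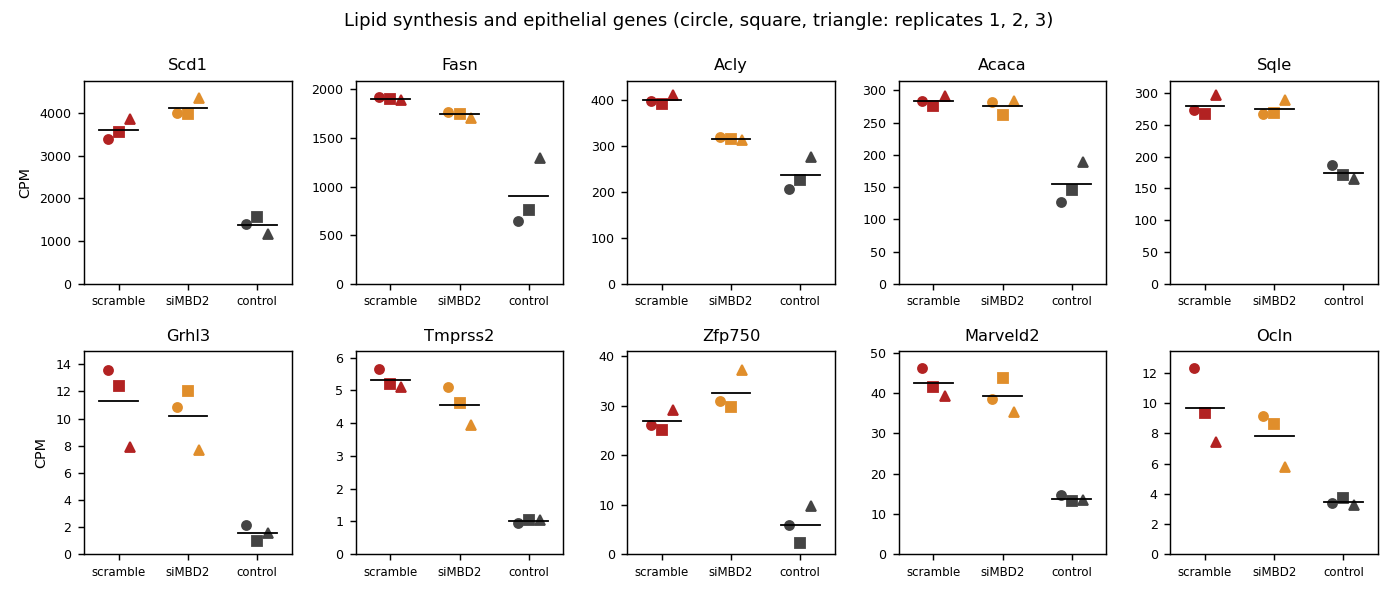
Level in CPM (linear axis from 0) of 5 lipid synthesis genes and 5 epithelial genes in each scramble, siMBD2 and control library, with circles, squares and triangles for replicates 1, 2 and 3 and a line at the group mean. Scramble and siMBD2 libraries stand above all control libraries in each panel, for example 46.3, 41.6 and 39.3 CPM of Marveld2 with scramble, against 14.7, 13.3 and 13.4 CPM in control.

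Genes of endocytosis and lipid uptake included 5 that rose and 1 that fell, of 26, against 4.71% higher and 4.08% lower over all genes. Cltc, the clathrin heavy chain, rose by a log2 fold change of 0.48 (edgeR adjusted p = 0.0157), Scarb1, a lipoprotein receptor, by 0.50 (edgeR adjusted p = 0.0201), and Ehd4, of recycling endosomes, by 0.58 (edgeR adjusted p = 0.0247). Snx1, a sorting nexin, fell, with a log2 fold change of -0.43 (edgeR adjusted p = 0.0262). Cltc, Scarb1, Ehd4 and Snx1 held only without control replicate 3, and the number of higher members was 7 in that fit and 1 in each of the other 5. Among 33 lysosome and autophagy genes none rose and 1 fell, while 10 reached an unadjusted p below 0.05 and DESeq2 called 4 higher and 1 lower. The lower gene was Map1lc3a, a membrane marker of autophagosomes, with a log2 fold change of -0.46 (edgeR adjusted p = 0.0473, held only without control replicate 3).

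Some redox and detoxification genes rose. Of 30 measured NRF2 targets 11 rose, 2 fell and 17 did not pass, against 4.71% higher and 4.08% lower over all genes, with a median of 0.43, against -0.03 over all genes. Txnrd1, thioredoxin reductase, had 360.4, 359 and 273 CPM in scramble libraries, against 202, 220.4 and 215 CPM in control (log2 fold change 0.64, edgeR adjusted p = 0.00957), and Gsr, glutathione reductase, had 82.7, 82.8 and 85.2 CPM, against 57.6, 61.02 and 57.8 CPM (edgeR adjusted p = 0.00607). Gclm overlaps predicted genes and is uncertain. Gclc and Gclm, the subunits of the enzyme that limits glutathione synthesis, rose by log2 fold changes of 0.55 and 0.58 (edgeR adjusted p = 0.00868 and 0.0279). Hmox1, heme oxygenase, had 51.2, 47.1 and 64.7 CPM, against 26.1, 25.9 and 24.9 CPM (log2 fold change 1.08, edgeR adjusted p = 0.0214). Taldo1, transaldolase of the pentose phosphate pathway, fell, with 84.7, 88.2 and 85.3 CPM, against 159.97, 141 and 126 CPM (log2 fold change -0.72, edgeR adjusted p = 0.00366). Gclc and Txnrd1 lost the call without scramble replicate 1 (0.0513 and 0.0523), and Gclm and Hmox1 held only without control replicate 3 (up to 0.0878 and 0.0717). The number of higher members was 2 without scramble replicate 1, 5 to 7 without any 1 of 4 others, and 11 without control replicate 3.

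The same promoter windows were searched for TGACNNNGC, a core of the antioxidant response element that NRF2 binds. It was found in 9 of 24 NRF2 list members with a window (37.5%), against 14.0% of all genes with a window, and in 6 of the 8 members that rose and had one. Windows of Gclm, Txnrd1 and Me1 are shown because they place the element at different distances from the start.
Gclm, chr3:122245403-122245451, plus strand: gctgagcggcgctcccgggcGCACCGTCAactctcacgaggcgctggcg
Txnrd1, chr10:82859094-82859142, plus strand: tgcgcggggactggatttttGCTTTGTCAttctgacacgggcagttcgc
Me1, chr9:86695892-86695940, minus strand: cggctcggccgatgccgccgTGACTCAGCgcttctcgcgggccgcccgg
Capitals again mark the match. The match in Me1, malic enzyme, lies across its start, and those in Gclm and Txnrd1 lie upstream. Me1 had 102, 102 and 117 CPM in scramble libraries, against 76.6, 75.9 and 64.9 CPM in control (log2 fold change 0.57, edgeR adjusted p = 0.00647), and is uncertain for an overlap on the opposite strand.

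Of 18 measured transporters and metal-binding genes 8 rose (44.4%, against 4.71% of all genes) and none fell. Slc30a1 (chromosome 1, 191906767 to 191913247), which exports zinc from the cell, had 42.5, 46.2 and 58.5 CPM in scramble libraries, against 13.9, 6.26 and 21.3 CPM in control (log2 fold change 1.82 with SE 0.34, edgeR adjusted p = 0.00991), and overlaps another gene on the opposite strand. Mt1, a zinc-binding metallothionein, had 42.2, 48.3 and 54.9 CPM, against 28.4, 17.4 and 15.6 CPM (edgeR adjusted p = 0.0218). Both are known targets of the metal sensor MTF1, and neither overlapped between groups. Mt1 lost the call without control replicate 2 or any 1 scramble library (up to 0.0793). Slc38a1, a glutamine carrier, rose by a log2 fold change of 1.06 (edgeR adjusted p = 0.0119) and lost the call without control replicate 2 (0.0542), and Slc7a1, the arginine carrier, rose by 0.95 (edgeR adjusted p = 0.00774). The number of higher members was 2 without control replicate 2, 3 without any 1 scramble library, 4 without control replicate 1 and 7 without control replicate 3.

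Other stress pathways gave from 0 to 4 increases a list. Of 31 ATF4 targets 4 rose (12.9%, against 4.71% of all genes) and none fell, with a median of 0.01 that turned to -0.12 without the libraries of replicate 3. The count was 2 without control replicate 1 or any 1 scramble library, and 5 higher and 7 lower without control replicate 3. Ddit4, the stress-induced inhibitor of mTORC1, had 573, 633 and 453 CPM in scramble libraries, against 219, 261 and 256 CPM in control (log2 fold change 1.17 with SE 0.13, edgeR adjusted p = 0.00157), and held in every leave-one-out fit. No member of the unfolded protein response (24 genes, 2 with an unadjusted p under 0.05, none called by DESeq2) or of the heat shock response (21 genes, 9 under 0.05, 3 higher by DESeq2) passed the edgeR threshold. Of 30 p53 targets 1 rose (Aen, a nuclease, log2 fold change 0.47, edgeR adjusted p = 0.0425) and 1 fell (Ei24, -0.30, edgeR adjusted p = 0.0277), and neither held in every leave-one-out fit (edgeR adjusted p up to 0.146 and 0.124). Without control replicate 3 it was 2 higher and 7 lower. Among 28 apoptosis genes 1 rose and 2 fell, and 2 and 4 without control replicate 3. Over all genes 4.71% were higher and 4.08% lower, and without control replicate 3 the totals were 1664 and 1446 genes. Bmf, a pro-apoptotic BH3-only protein, had 4.398, 3.64 and 3.72 CPM, against 8.26, 10.8 and 10.4 CPM (log2 fold change -1.32, edgeR adjusted p = 0.00370). Bcl2l1, which encodes the survival protein BCL-XL, had 165, 169 and 203 CPM, against 108, 116 and 105 CPM (log2 fold change 0.71, edgeR adjusted p = 0.0128, and 0.0518 without scramble replicate 3).

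**Figure D5:**
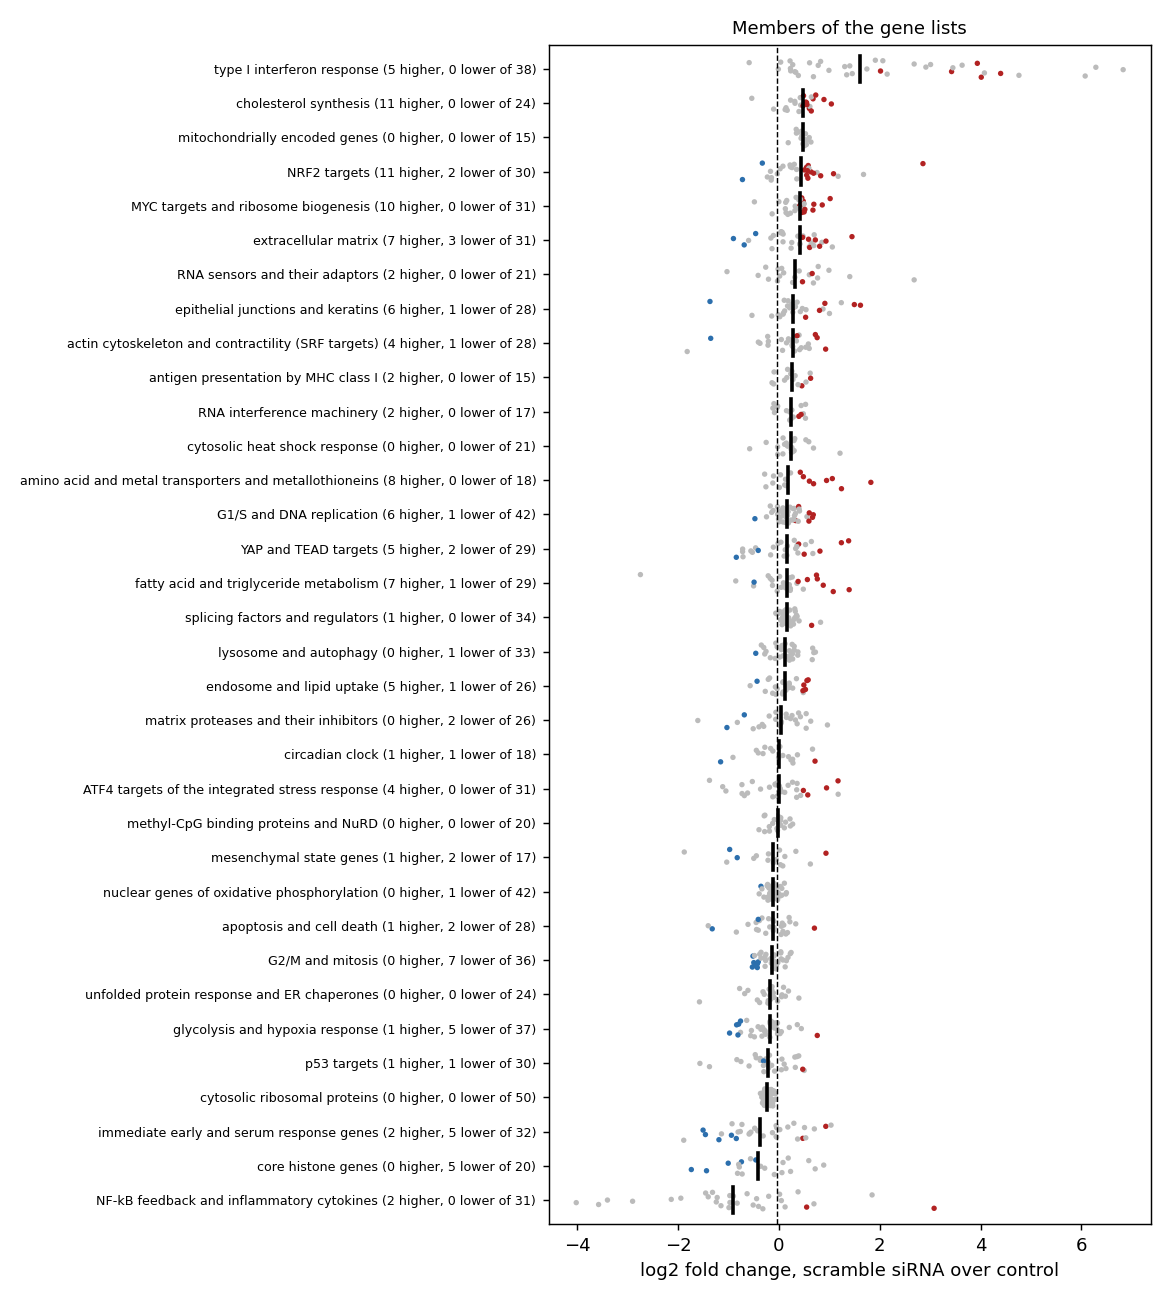
Log2 fold change of scramble over control (x axis) for each measured member of the 34 gene lists (rows), red where higher, blue where lower and grey where the edgeR adjusted p was 0.05 or more, with a bar at the list's median and a dashed line at the median of all genes (-0.03). The type I interferon response has the highest median (1.60) and the NF-kB and cytokine genes the lowest (-0.90).

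Cell cycle genes were called in both directions. Of 42 genes of G1/S and DNA replication 6 rose and 1 fell, with a median of 0.16. Of 36 genes of G2/M and mitosis none rose and 7 fell, with a median of -0.14. Over all genes 4.71% were higher and 4.08% lower. The difference between the lists was not tested. Ccne2, a cyclin of S-phase entry, had 74.5, 76.6 and 74.1 CPM in scramble libraries, against 44.9, 40.1 and 55.3 CPM in control (log2 fold change 0.68, edgeR adjusted p = 0.00933), and overlaps Ints8 on the opposite strand. E2f2, a factor that activates S-phase genes, had 23.4, 22.3 and 19.4 CPM, against 11.97, 14.4 and 14.6 CPM (edgeR adjusted p = 0.0107, and up to 0.0592 without scramble replicate 1 or 2). In G2/M, Dlgap5, a spindle protein, had 42.1, 37.8 and 42.1 CPM, against 57.8, 56.3 and 54.4 CPM (log2 fold change -0.47, edgeR adjusted p = 0.0122), and Pttg1, securin, had 56.99, 59.6 and 60.1 CPM, against 92.8, 88.6 and 73.1 CPM (edgeR adjusted p = 0.0153). Dlgap5 lost the call without scramble replicate 1 or 2 (up to 0.0710), and Pttg1 without those and without control replicate 1 or 2 (up to 0.0759). The number of lower G2/M genes ranged from 0 without scramble replicate 1 to 9 without control replicate 3, with 12 under the block, and the number of higher G1/S genes from 1 without scramble replicate 1 or 2 to 8 without control replicate 3.

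Genes that build ribosomes and genes that encode their proteins differed in direction of estimate. Of 31 MYC targets and ribosome biogenesis genes 10 rose and none fell, against 4.71% higher and 4.08% lower over all genes. Their median was 0.41, and 16 were higher with the block. Rrp12, an export factor of ribosomal subunits, had 112, 104 and 94.4 CPM in scramble libraries, against 46.3, 63.3 and 61.4 CPM in control (log2 fold change 0.86, edgeR adjusted p = 0.00943). Rrs1, an assembly factor of the large subunit, had 159, 156 and 136 CPM, against 55.8, 72.9 and 93.6 CPM (log2 fold change 1.02, edgeR adjusted p = 0.0105, and 0.0515 without scramble replicate 1). The number of higher members ran from 1 without scramble replicate 1 to 14 without control replicate 3. None of the 50 cytosolic ribosomal protein genes passed, 19 reached an unadjusted p below 0.05, DESeq2 called none, and all 50 estimates were below 0, with a median of -0.24. The pair-wise median was -0.39, -0.31 and 0.05 for replicates 1, 2 and 3, and 40 were lower without control replicate 3 and 46 without the libraries of replicate 3. Those fits called 1446 and 2933 genes lower over all genes. Of those checked, Rplp0, Rplp1, Rpl24 and Rpl6 have near-identical copies and are uncertain.

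Mitochondrially encoded genes took 2.21%, 2.32% and 3.01% of the counts in scramble replicates 1, 2 and 3, against 1.45%, 1.47% and 2.81% in control. None of the 15 passed the edgeR threshold, 3 reached an unadjusted p below 0.05, 1 was higher by DESeq2, and all 15 estimates were above 0 with a median of 0.48. With the block 5 were higher, and without control replicate 3 it was 8. Of those checked, mt-Atp6, mt-Co3 and mt-Nd4l have near-identical copies, so their levels are uncertain. Among 42 nuclear genes of oxidative phosphorylation none rose and 1 fell, against 4.71% higher and 4.08% lower over all genes. The median was -0.11, and 10 were lower without control replicate 3. None passed the edgeR threshold as lower without control replicate 1 or 2 or scramble replicate 1 or 2.

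Fold change moved with exon length, taken as the merged length of all exons annotated for a gene. That length can exceed the length of any single transcript. In 4 groups of equal size by total exon length, from shortest (up to 2308 bases) to longest (6324 bases and more), the median log2 fold change was -0.17, -0.08, 0.01 and 0.10. The share of genes higher was 1.61%, 3.31%, 5.75% and 8.13%, and the share lower 4.62%, 4.52%, 4.19% and 2.93%. The gradient was present between scramble and control replicates 1 (medians from -0.32 to 0.19) and 2 (from -0.18 to 0.16) and not between replicates 3 (from 0.04 to -0.03). Ribosomal protein genes have a median exon length of 2011 bases and the nuclear genes of oxidative phosphorylation 2101 bases, both in the shortest group. The part of length in these results was not tested.

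Matrix genes changed in both directions. Of 31 measured, 7 rose and 3 fell, against 4.71% higher and 4.08% lower over all genes, with a median of 0.41, or 0.24 without control replicate 1 (12 higher and 2 lower without control replicate 3, and 2 and 0 without scramble replicate 1). Without control replicate 3, 1664 genes were higher and 1446 lower over all genes. Col12a1, a fibril-associated collagen, had 79.7, 75.1 and 65.9 CPM in scramble libraries, against 17.04, 27.1 and 36.7 CPM in control (log2 fold change 1.45 with SE 0.22, edgeR adjusted p = 0.00481). Fn1, fibronectin, had 2620.1, 2562 and 2305 CPM, against 1029.7, 1473 and 1416 CPM (log2 fold change 0.93, edgeR adjusted p = 0.0104, and 0.0513 without scramble replicate 1). Tnc, tenascin C, rose by a log2 fold change of 0.81 (edgeR adjusted p = 0.0115), and Fn1 and Tnc each overlap a gene on the opposite strand. Col6a2 and Col6a1, chains of collagen VI, fell, with log2 fold changes of -0.90 and -0.69 (edgeR adjusted p = 0.0175 and 0.0340), and Col6a2 lost the call without control replicate 2 or any 1 scramble library (up to 0.0726), and Col6a1 held only without control replicate 1 (up to 0.116). The fibroblast markers given above had a lower sum in the scramble libraries, most of it Pdgfra, with Dcn and Lum near 0 and Thy1 at 0. The part of these markers in the matrix changes was not tested.

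Mesenchymal genes gave 1 increase, Fn1, and 2 decreases, of 17 measured, against 4.71% higher and 4.08% lower over all genes. S100a4, a calcium-binding protein linked to motility, had 15.1, 13.6 and 15.2 CPM, against 31.3, 28.6 and 26.7 CPM (log2 fold change -0.98, edgeR adjusted p = 0.00607), with a near-identical copy that makes it uncertain. Snai2, the repressor Slug, had 8.11, 6.06 and 11.04 CPM, against 17.1, 13.9 and 13.8 CPM (edgeR adjusted p = 0.0496), and lost the call without control replicate 1 or 2 or scramble replicate 1 or 2 (up to 0.178). Of 26 matrix proteases and inhibitors none rose and 2 fell, with 7 at an unadjusted p under 0.05. Plau, the urokinase plasminogen activator, had 16.3, 18.4 and 26.01 CPM, against 43.2, 43.7 and 37.05 CPM (log2 fold change -1.03 with SE 0.16, edgeR adjusted p = 0.00560), and held in every leave-one-out fit. Plat, the tissue plasminogen activator, fell, with a log2 fold change of -0.69 (edgeR adjusted p = 0.0311) and held only without control replicate 3 (up to 0.112).

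Genes that answer serum and mechanical cues were mixed. Of 32 immediate early genes 2 rose and 5 fell, against 4.71% higher and 4.08% lower over all genes, with a median of -0.37. Egr3 (chromosome 14, 70077203 to 70082614), an early growth response factor, had 39.5, 41.8 and 53.7 CPM in scramble libraries, against 115, 116 and 139 CPM in control (log2 fold change -1.46 with SE 0.22, edgeR adjusted p = 0.00523). Ccn1, a secreted matricellular protein and YAP target, had 451, 485 and 556 CPM, against 911, 798 and 971 CPM (log2 fold change -0.84, edgeR adjusted p = 0.00564). Both held in every leave-one-out fit, and the lower count was 2 without any 1 scramble library and 3 to 5 without a control library. Nr4a1, an orphan nuclear receptor, rose by a log2 fold change of 0.93 (edgeR adjusted p = 0.0340) and lost the call without control replicate 1 or 2 or scramble replicate 2 or 3 (up to 0.112).

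Of 29 YAP and TEAD targets 5 rose and 2 fell, Ccn1 among the lower ones, with 9 and 3 without control replicate 3 and 2 and 1 without scramble replicate 1. Over all genes 4.71% were higher and 4.08% lower, and without control replicate 3 the totals were 1664 and 1446 genes. Ajuba, a LIM protein that restrains the Hippo kinases, had 122, 121 and 103 CPM, against 39.8, 56.6 and 50.2 CPM (log2 fold change 1.24 with SE 0.13, edgeR adjusted p = 0.00149). Crim1, a transmembrane regulator of BMP signalling, had 106, 105 and 103 CPM, against 33.2, 48.6 and 39.02 CPM (log2 fold change 1.38 with SE 0.16, edgeR adjusted p = 0.00159), with Fez2 on the opposite strand. Of 28 actin and SRF-linked genes 4 rose and 1 fell, with 7 and 3 without control replicate 3 and 2 and 0 without any 1 scramble library. Vcl, vinculin of focal adhesions, had 335, 330.03 and 311 CPM, against 179.5, 232 and 165 CPM (log2 fold change 0.76, edgeR adjusted p = 0.00551), with Ap3m1 on the opposite strand. Pdlim5, an actin-linked scaffold, had 439, 439 and 377 CPM, against 226, 275 and 159 CPM (log2 fold change 0.93, edgeR adjusted p = 0.00777). Ajuba, Crim1, Vcl and Pdlim5 held in every leave-one-out fit.

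Some histone and hypoxia-linked genes fell. Of 20 core and linker histone genes none rose and 5 fell, against 4.71% higher and 4.08% lower over all genes, with a median of -0.41. H2afv, the variant H2A.Z.2, had 51.1, 53.2 and 48.4 CPM in scramble libraries, against 84.2, 94.6 and 76.8 CPM in control (log2 fold change -0.74, edgeR adjusted p = 0.00493), and held in every leave-one-out fit. H1f0, a linker histone of resting cells, had 116, 124 and 115 CPM, against 253, 283 and 177 CPM (log2 fold change -1.01, edgeR adjusted p = 0.0201), held only without control replicate 3 (up to 0.0856) and overlaps a gene on the opposite strand. The lower count was 1 or 2 in each fit without 1 library other than control replicate 3, where it was 6. Of 37 glycolysis and hypoxia genes 1 rose and 5 fell, with a median of -0.18. Bnip3 and Bnip3l, receptors for the autophagy of mitochondria, fell, with log2 fold changes of -0.80 and -0.81 (edgeR adjusted p = 0.0137 and 0.0186), as did Car12, a membrane carbonic anhydrase, with -0.98 (edgeR adjusted p = 0.0173). Hk2, the hexokinase that starts glycolysis, went the other way, with 77.2, 85.1 and 71.5 CPM, against 33.5, 39.6 and 64.8 CPM (edgeR adjusted p = 0.0314), and held only without control replicate 3 (up to 0.122). No hypoxia gene was lower without scramble replicate 1 or 2, 1 was without scramble replicate 3, 3 were without control replicate 1 and 6 without control replicate 3. Bnip3 has a near-identical copy and an opposite-strand neighbour and is uncertain.

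The remaining lists held few calls, beside 4.71% higher and 4.08% lower over all genes. Of 18 clock genes 1 rose (Cry1, a repressor of the clock, log2 fold change 0.72, edgeR adjusted p = 0.00891) and 1 fell (Hlf, a clock output factor, -1.16, edgeR adjusted p = 0.0102, and up to 0.0585 without scramble replicate 1 or 2). Of 34 splicing factors 1 rose, Rbm25, with 208, 207 and 204 CPM, against 102, 117 and 176 CPM (edgeR adjusted p = 0.0297), which held only without control replicate 3 and overlaps a gene on the opposite strand. Of 20 methyl-CpG binding and NuRD genes, the complex with which MBD2 works, none passed in edgeR, 3 reached an unadjusted p below 0.05, and 1 was higher and 1 lower by DESeq2. Mbd2 had a log2 fold change of 0.04 (with SE 0.0851, edgeR adjusted p = 0.7998).

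The largest decreases by the naming rule were in genes of low level. Pdgfrb (chromosome 18, 61045150 to 61085061), the platelet-derived growth factor receptor beta of pericytes and fibroblasts, had 3.68, 4.001 and 2.19 CPM in scramble libraries, against 17.1, 16.95 and 15.9 CPM in control (log2 fold change -2.34 with SE 0.43, edgeR adjusted p = 0.00966). Every scramble library lay far below every control library. Pdgfrb is also the 1 fibroblast marker that passed the test. Tmprss4 (chromosome 9, 45172726 to 45204092), a membrane serine protease of the family of Tmprss2, moved opposite to it, with 2.26, 2.18 and 2.95 CPM, against 10.4, 14.8 and 9.68 CPM (log2 fold change -2.24 with SE 0.31, edgeR adjusted p = 0.00325), and overlaps a predicted gene on the opposite strand. Lpar3, a lysophosphatidic acid receptor, had 0.6598, 1.31 and 1.97 CPM, against 5.18, 6.99 and 4.32 CPM (log2 fold change -2.07, edgeR adjusted p = 0.0101). Ucma, a cartilage matrix protein, had 1.89, 2.06 and 2.404 CPM, against 9.66, 8.19 and 8.001 CPM (log2 fold change -2.02, edgeR adjusted p = 0.00598). Pdgfrb, Tmprss4, Lpar3 and Ucma held in every leave-one-out fit, as did Angpt4, an angiopoietin (log2 fold change -1.98), Scml4, a Polycomb-related protein (-1.83), Akna, a centrosomal factor (-1.68), and Gprc5b, an orphan receptor (-1.61), with edgeR adjusted p = 0.00607, 0.00302, 0.00840 and 0.00591. Akna and Gprc5b overlap genes on the opposite strand.

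The rest of the lower set depended more on single libraries. Myh8, the perinatal skeletal myosin heavy chain, had 0.974, 1.31 and 0.765 CPM, against 3.45, 7.13 and 7.31 CPM (log2 fold change -2.55, edgeR adjusted p = 0.0144), and lost the call without any 1 scramble library (up to 0.0714). Itga2, the collagen-binding integrin chain alpha 2, had 1.38, 0.871 and 1.49 CPM, against 5.504, 11.6 and 1.77 CPM (edgeR adjusted p = 0.0226), and held only without control replicate 3 (up to 0.101). Them5, a mitochondrial thioesterase, Slc13a3, a dicarboxylate carrier, and Tcp11l2 fell, with log2 fold changes of -2.41, -1.65 and -1.55 (edgeR adjusted p = 0.0153, 0.0101 and 0.0129). Hist3h2a, an H2A histone, and Sytl3, a vesicle-trafficking protein, fell, with log2 fold changes of -1.74 and -1.57 (edgeR adjusted p = 0.0133 and 0.0101) and are uncertain for opposite-strand overlaps, Sytl3 also for a copy. These 5 genes lost the call in at least 1 leave-one-out fit, with edgeR adjusted p up to 0.0586, 0.0515, 0.0637, 0.0659 and 0.0554. Hhip, an inhibitor of hedgehog signalling and the last of the 15 largest increases, rose by a log2 fold change of 1.65 (edgeR adjusted p = 0.0321), held only without control replicate 3 (up to 0.116) and overlaps a gene on the opposite strand.

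The siMBD2 libraries give a second set of siRNA-treated cells, but they are compared here with the same 3 control libraries, so the comparisons are not independent and their values are only set side by side. In siMBD2 against control, 654 genes (4.38%) were higher and 585 (3.92%) lower. Leaving out control replicate 1, 2 or 3 gave 274, 262 and 1565 higher and 254, 238 and 1359 lower, and leaving out siMBD2 replicate 1, 2 or 3 gave 250, 289 and 285 higher and 181, 176 and 213 lower. Without scramble replicate 1 or 2, which enter the shared spread, it was 449 and 433 higher and 379 and 383 lower. Of the 38 interferon genes 29 were higher with siMBD2 and 5 with scramble, each against control, with medians of 3.20 and 1.60. Tested directly, siMBD2 over scramble called none of the 38 in edgeR, where 23 were higher at an unadjusted p under 0.05, and 2 higher by DESeq2. Over all 14935 genes that edgeR test gave 0 higher and 6 lower (0.0402%). For siMBD2 over scramble, the shares of all genes under that unadjusted p and called by DESeq2 are not given here. The counts of 23 and 2 therefore stand without a background. Ifit1 had 35.2, 29.01 and 276 CPM in siMBD2 libraries and 9.49, 9.94 and 67.03 CPM in scramble libraries, against 1.52, 2.73 and 1.13 CPM in control, and replicate 3 was the highest siMBD2 library for all 38 members too. For siMBD2 over scramble the edgeR adjusted p was 0.921 for Ifit1 and 0.8303 for Oas1a. For Marveld2 the log2 fold changes were 1.51 with siMBD2 and 1.62 with scramble, for Grhl3 2.68 and 2.83, for Scd1 1.59 and 1.39, for Pdgfrb -2.60 and -2.34, and for Egr3 -1.29 and -1.46, each against control. All of these passed the edgeR threshold in both comparisons. Taldo1 was called with scramble (-0.72) and not with siMBD2 (-0.14, edgeR adjusted p = 0.411), while siMBD2 over scramble had an edgeR adjusted p of 0.107. By list, 7 cholesterol genes were higher with siMBD2 and 11 with scramble, 12 NRF2 targets with siMBD2 and 11 with scramble, and 13 G2/M genes were lower with siMBD2 and 7 with scramble.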

How the data were processed

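Polyadenylated RNA from 12 libraries of a cultured mouse mammary tumour line in 4 groups of 3 was read on a NovaSeq X instrument (per the labels' protocols). The authors deposited 1 table of raw counts per gene for 55335 genes. Per the submitters' processing notes, DRAGEN, DESeq2 1.44.0 and the build mm10 (GRCm38.p6) were used, with no role given. The annotation, the strand setting and the treatment of multi-mapped reads are not given in the sources used here, so genes with a near-identical copy or an overlap on the opposite strand are named as uncertain. Overlaps were taken from GENCODE vM21, in which 54587 of the gene identifiers were found, and copies were searched by transcript sequence for the genes the naming rule gives.

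From these counts, genes were kept by filterByExpr (minimum count 10, minimum total 15) and fitted with edgeR 4.0.16 in R 4.3.3: TMM scaling, 1 mean per group over all 12 libraries, 8 residual degrees of freedom, a quasi-likelihood test of scramble minus control, and Benjamini-Hochberg adjustment over 14935 genes at 0.05. Levels are TMM-scaled CPM. Each SE was worked back from the test, as the absolute log2 fold change over the square root of its F statistic. It therefore adds nothing independent of the p-value. The p-values measure the spread between libraries that the labels call biological replicates. For a single gene, an exact permutation test of 3 against 3 cannot go below 0.1 and was not used. Alternatives were the replicate number as a block, the 6 libraries alone, DESeq2 1.42.0, other scalings, filters and thresholds, and leaving out each library or all libraries of replicate 3.

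The labels tag each library with a batch numbered as its replicate, and the numbers were taken to pair the libraries. Deviations from the group means correlated at r = 0.07, 0.02 and 0.13 across genes between scramble and control libraries 1, 2 and 3, and between -0.14 and 0.10 for libraries of unlike number, so the pairing rests on the label and not on these values. The library name of control replicate 3 carries the number 4, that of scramble replicate 3 the number 3.

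The members and gene lists were chosen with earlier results of these data known. The text names the 15 largest changes in each direction among called, non-overlapping genes with a mean of at least 2 CPM, leaving out predicted gene models, and up to 4 members with the smallest p of each of the 34 lists, and Mbd2. Fasn, Cdh1, Krt19, Cpt2, Gclm, Txnrd1, Hmox1, Mt1, Hk2, Col6a1, Snx1, Irf7 and Isg15, and the markers Trp63, Pdgfra and Cd14, were named beyond this, after their values were seen. A few genes that the rule gives are not reported here. Of 959 listed symbols 950 were in the table and 908 were tested. Promoter windows are from RefSeq (GRCm38.p6).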

Additional observations from a re-analysis of the deposited data

How the results depend on the processing

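Against 704 higher and 609 lower genes in scramble over control, the count was 154 and 157 for the 6 libraries alone with the replicate block, 1103 and 959 for the replicate block over 12 libraries, 1232 and 1067 by DESeq2, 3231 and 2933 without the libraries of replicate 3, 163 and 104 at an adjusted p under 0.01, and 93 and 191 at 2-fold or more. Upper quartile scaling gave 921 lower. Leaving out 1 library gave 187 to 1664 higher and 106 to 1446 lower. In siMBD2 over control, where all alternatives were chosen after seeing the data, 654 and 585 became 353 and 306 for the 6 libraries alone, 204 and 156 with the block added, 1125 and 986 by DESeq2, 3096 and 2701 without replicate 3, 138 and 106 at 0.01, and 144 and 171 at 2-fold. The block over 12 libraries gave 1012 higher, and leaving out 1 library gave 250 to 1565 higher and 176 to 1359 lower. The cause of these shifts was not tested, apart from stricter thresholds, which lower a count by construction. No named gene past the threshold changed sign in any alternative, but 37 to 54 of them lost the call without any 1 library other than control replicate 3, 6 without that one, and 54 for the 6 libraries alone with the block. The MHC class I median was -0.03 without the libraries of replicate 3, against 0.26 with them, and the ATF4, protease, clock and NuRD medians lay near 0 and changed sign in at least 1 alternative. Total counts were 26.1 to 34.0 M, and each group had 3 libraries, with replicate 3 apart. How much of the spread is counting error was not tested.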
